A study of Caenorhabditis elegans with 2 samples.

Results

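Autosomal coding exon candidates were the pooled ChIP-seq peaks whose summit lay in protein-coding sequence away from gene starts. They were taken from the candidate list called on both replicates together, in the ce11 assembly. The X chromosome was left out. A summit had to lie in a coding exon of the Ensembl annotation, outside a start window that ran from 1000 bp before to 200 bp after every protein-coding transcript start, and more than 500 bp from any tRNA, snoRNA or snRNA gene. Of 30000 pooled candidates, 24716 were autosomal, 8759 of those had a summit in a coding exon, 6576 of those were outside the start windows, and 6498 (21.7% of all candidates) remained as members.

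The series held 1 group of 2 biological replicates of whole young adult Caenorhabditis elegans of mixed sex, collected 66 hours after release from starvation-synchronized first larval stage. The strain OP553 carries unc-119(tm4063) III and the integrated transgene wgIs553, which encodes CEH-79 fused at its C terminus to GFP and FLAG. Chromatin was sheared by sonication and precipitated with an antibody against GFP, per the sample descriptions, while the antibody entry itself names ceh-79. No untagged strain was compared, so no contrast between conditions was possible, and the deposited lists hold no read counts, so the depth is unknown.

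CEH-79 belongs to the homeobox family of transcription factors, which bind DNA through a homeodomain that often prefers sites with a TAAT core. Such factors are usually studied at promoters and enhancers, which in the compact worm genome lie mostly upstream of genes or in introns. ChIP-seq peaks inside coding exons are less often assigned to a regulatory element, and a candidate list made as input for the irreproducible discovery rate holds weak peaks and background by design. The optimal list is the subset that the authors' irreproducible discovery rate step gave. Its signal is an enrichment score from the authors, with no unit stated. Among members it held the 41 ranked 1 to 566 by pooled signal and none ranked lower. Within members it was thus a cut on pooled signal, and a peak in it need not rank high in each replicate.

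The strongest members lay near the 3' ends of genes, mostly in the last coding exon. Of the 6498 members, 41 (0.631%, 95% interval 0.453 to 0.855) were in the optimal list, where 566 of all 30000 candidates (1.89%) stood. Those 41 members lay in 40 genes. Intervals of shares are exact binomial ones and cover counting error only. Peaks of 1 pooled list are not independent replicates, and the p-values below compare counts of peaks, not animals.

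The bases under several of these summits are shown to let the strongest members be read directly. They are the strongest members on chromosomes II to V, down to clec-264, together with col-38 and cpr-4, which stand in gene lists described below. They do not stand for all optimal members, since 6 of these 9 windows held at least 50% GC and all but those of pck-1 and clec-264 lie in the last coding exon. Each run reaches 50 bp to either side of the summit and reads 5' to 3' on the strand of the gene, from the RefSeq sequence of the ce11 assembly. Capitals mark coding bases and lower case marks intron. The lelo-2 window is chrIII:1420022-1420122, on the minus strand, in exon 7 of 7 coding exons. The pair of dos-3 windows, chrIII:835873-835973 and chrIII:836081-836181 on the minus strand, share exon 11 of 11. The Y54G2A.18 window is chrIV:2891749-2891849 (minus strand, exon 3 of 3), and that of nspg-11 is chrIV:9322649-9322749 (minus strand, at the start of exon 6 of 6). The pck-1 window is chrIII:63955-64055 (minus strand) and that of clec-264 chrV:20847991-20848091 (minus strand), each in exon 4 of 5 and so not in the last exon. The col-38 window is chrII:8568349-8568449 (minus strand, exon 2 of 2) and the cpr-4 window chrV:6615363-6615463 (plus strand, exon 2 of 2).
lelo-2: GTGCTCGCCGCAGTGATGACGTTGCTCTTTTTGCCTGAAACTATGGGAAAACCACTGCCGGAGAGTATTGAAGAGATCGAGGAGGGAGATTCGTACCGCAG
dos-3, first peak: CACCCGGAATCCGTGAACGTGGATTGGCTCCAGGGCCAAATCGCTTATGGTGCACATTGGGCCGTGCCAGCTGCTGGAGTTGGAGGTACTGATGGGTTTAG
dos-3, second peak: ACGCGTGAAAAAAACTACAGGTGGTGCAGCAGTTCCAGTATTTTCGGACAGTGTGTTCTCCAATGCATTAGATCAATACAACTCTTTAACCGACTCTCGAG
Y54G2A.18: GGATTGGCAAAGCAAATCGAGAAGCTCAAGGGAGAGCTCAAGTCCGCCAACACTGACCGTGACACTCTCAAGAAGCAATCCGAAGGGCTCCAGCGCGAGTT
pck-1: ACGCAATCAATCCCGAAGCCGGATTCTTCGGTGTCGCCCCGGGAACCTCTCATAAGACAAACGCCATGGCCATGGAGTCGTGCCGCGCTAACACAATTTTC
nspg-11: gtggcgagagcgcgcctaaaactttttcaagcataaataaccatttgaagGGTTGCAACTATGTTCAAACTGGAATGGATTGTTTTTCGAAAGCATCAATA
clec-264: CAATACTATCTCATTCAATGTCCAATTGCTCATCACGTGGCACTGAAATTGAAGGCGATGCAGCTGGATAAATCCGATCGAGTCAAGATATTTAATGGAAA
col-38: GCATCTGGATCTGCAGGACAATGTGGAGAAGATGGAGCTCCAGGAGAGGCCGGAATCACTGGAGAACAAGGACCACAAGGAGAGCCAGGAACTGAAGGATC
cpr-4: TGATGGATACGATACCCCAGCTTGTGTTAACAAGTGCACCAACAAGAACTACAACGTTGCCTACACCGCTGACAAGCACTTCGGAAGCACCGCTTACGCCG

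The GC content of these windows ran from 38.6% in nspg-11 to 57.4% in the first dos-3 window. The window of lelo-2 held 52.5% GC, that of pck-1 55.4% and that of col-38 54.5%. The second dos-3 window held 43.6% and that of clec-264 39.6%. Among the strong members not shown, the lmd-2 summit window held 35.6% and that of suro-1, in exon 9 of 10, 40.6%. None of the 41 optimal members had 50% or more of its 31-base words repeated elsewhere in the genome, against 41 of all 6498 members (0.631%), 188 intronic candidates (3.52%) and 184 intergenic candidates (4.64%).

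The strongest member lay in lelo-2 (III, 1419860 to 1420283), with a pooled signal of 174 and rank 38 among all candidates. Its signal was 78.2 in replicate 1 and 97.6 in replicate 2, where it ranked 16. The gene dos-3, a member of the DOS family of putative Notch co-ligands, was the only host gene with more than 1 optimal member. Its peaks were neighbours in the last coding exon, with signals of 165 (III, 835845 to 836008, rank 45) and 138 (III, 836042 to 836179). The first ranked 93 in replicate 1 and 36 in replicate 2, and the second ranked 187 and 111. These peaks were 164 and 138 bp wide, and with the lmd-2 peak of 197 bp they were the 3 members narrower than the usual 424 bp. The lmd-2 peak (I, 4645341 to 4645537) had a signal of 162 and ranked 302 in replicate 1 and 10 in replicate 2. All 4 of these peaks stood among the strongest 566 of each replicate.

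Of the optimal members in the gene lists, the strongest lay in pck-1, clec-264, col-38 and cpr-4. In pck-1, which encodes the gluconeogenic enzyme phosphoenolpyruvate carboxykinase, the peak (III, 63793 to 64216) had a signal of 121, with 66.8 and rank 236 in replicate 1 and 68.6 and rank 86 in replicate 2. A second pck-1 member, outside the optimal list, overlapped it at a signal of 78.9. The peak in clec-264, a C-type lectin gene (V, 20847829 to 20848252), had a signal of 113 and ranked 131 and 363. The cuticle collagen gene col-38 (II, 8568187 to 8568610) had a signal of 97.9 and ranked 297 and 2344. The cathepsin B-like protease gene cpr-4 (V, 6615201 to 6615624) had a signal of 94.9 and ranked 222 and 5632. Both of these last peaks ranked far lower in replicate 2 than in replicate 1.

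By difference in rank the replicates stood farthest apart at wwp-1, T21H3.5, suro-1 and cpr-4. The suro-1 peak (I, 7872291 to 7872714), in a gene for a zinc carboxypeptidase, had a pooled signal of 128 but ranked 6049 in replicate 1 and 56 in replicate 2. The wwp-1 peak (I, 541185 to 541608), in a ubiquitin ligase gene and named after its value was seen, had a signal of 90.1 and ranked 167 in replicate 1 and 23245 in replicate 2. The T21H3.5 peak (V, 1158136 to 1158559), also named after its value was seen, had a signal of 92.6 and ranked 127 in replicate 1 and 6774 in replicate 2. Among the 41 optimal members, 27 stood among the 566 strongest candidates of replicate 1 and 23 among those of replicate 2. Of them 13 stood in both sets and 4 in neither. Just inside the list were ccar-1 (signal 87.3, rank 551), rga-9 (87.3, rank 552) and spsb-1 (87, rank 559). Just outside the list were afmd-2 (86.5, rank 567), W03C9.2 (86.5, rank 569) and F56C9.10 (85.9, rank 573).

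**Figure D1:**
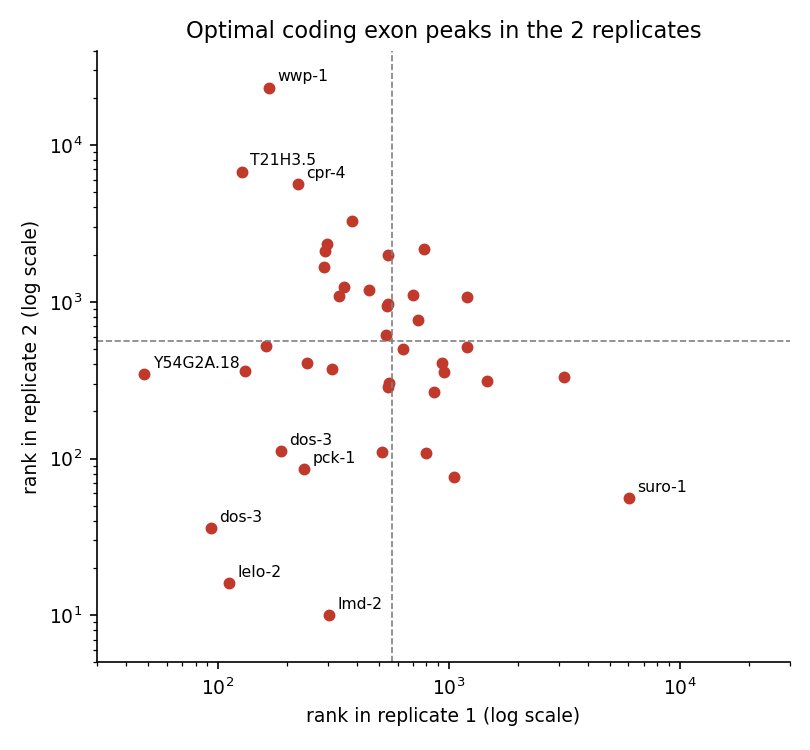
Rank of the 41 optimal coding exon peaks among the candidates of replicate 1 (horizontal, log scale) and replicate 2 (vertical, log scale), 1 point per peak, with low ranks for strong peaks. Dashed lines mark rank 566 in each replicate, and 13 points lie below it in both, while wwp-1, T21H3.5, suro-1 and cpr-4 lie farthest from it, each in 1 replicate.

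Across all members the signal ran from 23.2 to 174, with a median of 32.5 and quartiles of 27.3 and 40.7. The median was 31.4 over the 5340 autosomal intronic candidates and 32.5 over the 3969 autosomal distal intergenic ones, both chosen by the same windows, and 32.6 over all candidates. The medians lay close together. The 99th percentile was 79.4 for members, 81.0 for intronic and 98.8 for intergenic candidates. The highest signal was 344 for intronic and 179 for intergenic candidates.

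Members were in the optimal list less often than intergenic candidates. The share was 0.631% against 64 of 3969 intergenic candidates (1.61%, interval 1.24 to 2.05), an odds ratio of 0.387 (interval 0.255 to 0.584). Two-sided Fisher's exact tests adjusted over 4 comparisons gave an adjusted p = 8.78e-06. Among intronic candidates 38 of 5340 (0.712%, interval 0.504 to 0.975) were optimal, an odds ratio of 0.886 (Fisher's exact test, adjusted p = 0.650, interval 0.555 to 1.42). That interval spans 1, and the direction turned with each replicate alone and with a narrower start window. When the 566 strongest candidates of 1 replicate stood in for the optimal list, the members' share was 0.909% in replicate 1 and 0.862% in replicate 2, with 1.56% and 1.59% for intergenic and 0.792% and 0.828% for intronic candidates.

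The members' share of the candidate list was low only at its top. Members made up 41 of the candidates ranked 1 to 566 (7.24%, interval 5.25 to 9.70) and 492 of those ranked 567 to 3000 (20.2%, interval 18.6 to 21.9). Those 41 are the optimal members, so the value of the top range restates the optimal share and is not a separate result. In the 3 lower rank ranges their share stayed between 21.9% and 22.2%. Intronic candidates made up 6.71% of the top range and 20% of the last, and intergenic ones 11.3% and 13.9%.

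**Figure D2:**
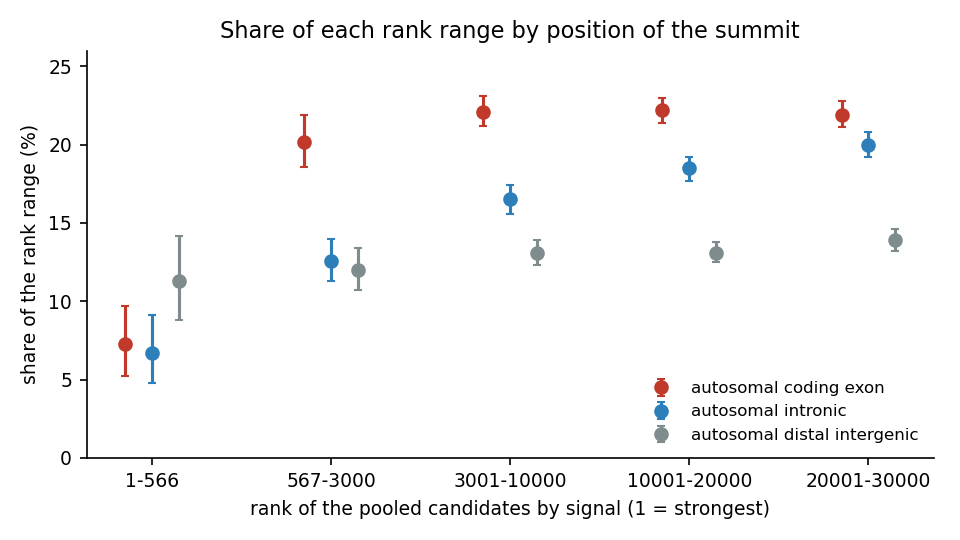
Share of each range of pooled signal rank (horizontal) held by autosomal coding exon, intronic and distal intergenic candidates (vertical, percent), with exact binomial 95% intervals. Coding exon candidates make up 7.24% of ranks 1 to 566 and at least 20.2% of every other range.

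Per base, coding sequence held more candidates than introns or intergenic sequence. The rule left 15.9 Mb of autosomal coding sequence eligible, which held 409 members per Mb, against 239 intronic candidates per Mb in 22.4 Mb and 205 intergenic candidates per Mb in 19.3 Mb. The replicates gave 395 and 394 per Mb for coding, 243 in each for intronic, and 213 and 211 for intergenic sequence. Optimal peaks stood in another order, with 2.58 per Mb in coding, 1.70 in intronic and 3.31 in intergenic sequence. GC content was 42.7% of eligible coding, 31.9% of intronic and 34.4% of intergenic bases. Coding sequence was highest in both measures, while introns held more candidates per Mb than intergenic sequence at a lower GC content, and the part of GC content in the densities was not tested. At the summits the median GC content was 44.6% for members, 38.6% for intronic and 40.6% for intergenic candidates. By chromosome the density of members was highest on III, at 449 per Mb, followed by 429 on II, 421 on I, 380.1 on V and 378 on IV.

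Candidates of both replicates overlapped 3225 of the 6498 members (49.6%, interval 48.4 to 50.9) by at least 1 bp, close to the 49.5% of all candidates. Replicate 1 overlapped 4842 members (74.5%) and replicate 2 4566 (70.3%), and 315 (4.85%) were overlapped by neither. The peaks of replicate 1 covered 15.5% of the eligible coding bases, those of replicate 2 15%, and both together 5.13%. The members' summits lay inside them in 67.4%, 61.4% and 36.3% of cases. The pooled list was called on the same reads as the replicate lists, and all lists share 1 control alignment, so these shares do not measure independent agreement.

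Overlap in both replicates was more frequent among members than among intronic candidates, of which 2440 (45.7%) had it (odds ratio 1.17, interval 1.09 to 1.26, Fisher's exact test, adjusted p = 4.23e-05). It was also more frequent than among intergenic candidates, of which 1837 (46.3%) had it (odds ratio 1.14, interval 1.06 to 1.24, Fisher's exact test, adjusted p = 0.00126). With an overlap of at least 50% of the pooled peak the intergenic call was lost (odds ratio 1.03, Fisher's exact test, adjusted p = 0.583). Agreement was lower in each weaker rank range in all 3 kinds. It was 100% of members, 95.3%, 75.2%, 46.4% and 23.6% from the strongest rank range to the weakest. The strongest range holds the optimal members, which the irreproducible discovery rate step chose. Its value was 100% in all 3 kinds and is not a separate measure of agreement. The order of the 3 kinds changed with rank. In ranks 567 to 3000 the share was 96.4% for intronic and 95.5% for intergenic candidates, and in ranks 3001 to 10000 it was 76.5% and 74.6%, so intronic candidates stood above members in both ranges. In ranks 10001 to 20000 it was 43.1% and 40.9%, and in the weakest range 21.5% and 19.9%, below members in both. These shares by rank were not tested. Replicate candidates were also denser in coding sequence (395 and 394 per Mb) than in intronic (243 in each) or intergenic sequence (213 and 211). The part of that density in the overlaps was not tested. Over the 3225 members overlapped in both replicates, the signals had a Spearman correlation of 0.174 across peaks, which share the control alignment.

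Within genes, optimal members stood apart from the rest by position. The summit lay in the last coding exon of its transcript in 25 of 41 optimal members (61%) and in 1185 of 6457 others (18.4%), an odds ratio of 6.95 (interval 3.55 to 14, Fisher's exact test, adjusted p = 1.50e-08, adjusted over 7 features). The call held with each replicate alone, though the odds ratio was 2.98 (Fisher's exact test, adjusted p = 0.00106) without replicate 2 and 6.01 (Fisher's exact test, adjusted p = 1.56e-09) without replicate 1. With the start window narrowed to 500 bp before and 100 bp after the start it was 3.94 (Fisher's exact test, adjusted p = 5.81e-06). Among the other members the last-exon share was 29.5% in ranks 567 to 3000 and 21.4%, 17.1% and 15% in the lower ranges. Last exons of genes with several coding exons held 14.6% of eligible bases, 18.1% of all members (interval 17.1 to 19) and 23 of the optimal members. The other 2 of the 25 lay in single coding exons, which were counted as both first and last.

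Distance to the transcript's 3' end showed the same pattern. Optimal summits lay a median of 360.0 bp from it (quartiles 210.0 and 807), against a median of 1462 bp over all members (quartiles 635 and 3124). Within 500 bp of the 3' end lay 28 of 41 optimal members (68.3%, interval 51.9 to 81.9), 1268 of 6457 others (19.6%) and 18.1% of eligible coding bases. Under 250 bp from the end, 17 of 528 members were optimal (3.22%, interval 1.89 to 5.11), and from 250 to 500 bp 11 of 768 were (1.43%). Beyond 2000 bp 4 of 2523 members were optimal (0.159%, interval 0.0432 to 0.405). These distances were examined after the last-exon result was seen and overlap with it. The density of members themselves varied less, from 389 per Mb between 500 and 1000 bp to 492 per Mb between 250 and 500 bp.

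**Figure D3:**
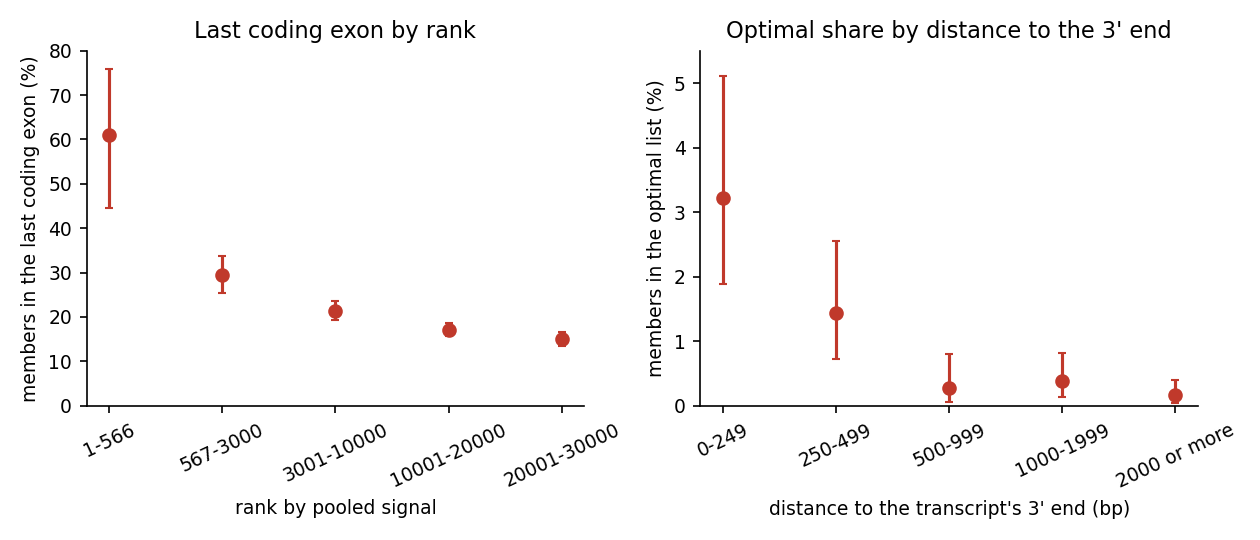
Left, share of members with the summit in the last coding exon (vertical, percent) by range of pooled signal rank. Right, share of members in the optimal list (vertical, percent) by distance from the summit to the 3' end of the transcript. Points carry exact binomial 95% intervals, and both shares are highest at the left, at 61% and 3.22%.

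Examples of optimal summits near a 3' end were T05C3.2 (75 bp from the end, exon 26 of 26), pigq-1, named for an enzyme of glycosylphosphatidylinositol anchor synthesis (117 bp, exon 6 of 6), and mrrf-1, a mitochondrial ribosome recycling factor gene (152 bp, exon 4 of 4). Exceptions lay far from it. In znf-236 the summit was in the first of 13 coding exons, 17752 bp from the end and 270 bp from a start. In nhr-88, a nuclear hormone receptor gene, it was in exon 3 of 8, 7134 bp from the end. The short gene rps-15, which encodes a protein of the small ribosomal subunit, was an exception by exon only. Its summit lay in exon 2 of 3, but 378 bp from the end, close to the optimal median, and 243 bp from the start. The nearest protein-coding start that a summit lay upstream of, on either strand, was over 1000 bp away by the rule. Its median distance was 2860.0 bp for optimal members and 3812 bp for others, and it was within 2000 bp for 12 (29.3%, interval 16.1 to 45.5) and 23.2% of them.

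The GC content of the summit window was at least 50% in 19 optimal members (46.3%) and 24.1% of the others, an odds ratio of 2.72 (interval 1.39 to 5.29, Fisher's exact test, adjusted p = 0.00940). This call was lost with a start window of 2000 bp before to 500 bp after the start (odds ratio 2.23, Fisher's exact test, adjusted p = 0.151) and with only the 283 strongest optimal peaks (odds ratio 2.24, Fisher's exact test, adjusted p = 0.621). The GC share was 42.1% in ranks 567 to 3000 and 18.9% in the last range. The other 5 features did not pass. A summit in the first coding exon was seen in 9.76% and 4.07% (odds ratio 2.55, interval 0.654 to 7.16, adjusted p = 0.101, by Fisher's exact test), and it passed with each replicate alone (odds ratios 2.81 and 3.75, adjusted p of 0.0485 and 0.00610 without replicate 1 and 2, by Fisher's exact test). It also passed with the narrower start window (odds ratio 4.17, Fisher's exact test, adjusted p = 9.92e-05). With 250 bp around short noncoding genes it passed (odds ratio 3.08, Fisher's exact test, adjusted p = 0.0437). With 1000 bp around them it did not (odds ratio 1.96, Fisher's exact test, adjusted p = 0.249). The direction turned with the wider start window, where 0 of 26 optimal members and 1.05% of the others had it. A summit within 500 bp of another noncoding gene or a pseudogene was seen in 12.2% and 5.48% (odds ratio 2.39, interval 0.729 to 6.17, adjusted p = 0.101, by Fisher's exact test), but without replicate 1 the shares were 5.56% and 5.75% and the direction turned (odds ratio 0.964). A summit in a transcript with a single coding exon was seen in 2 optimal members, Y47D7A.13 and F47B8.13 (named after their values were seen), and 0.542% of the others (odds ratio 9.41, interval 1.06 to 38.9, Fisher's exact test, adjusted p = 0.0525). That feature rests on these 2 peaks: it passed with 250 bp or 1000 bp around short noncoding genes and in unrepeated sequence (adjusted p of 0.0428, 0.0489 and 0.0453, by Fisher's exact test), while 0 of 54 peaks had it without replicate 1. A summit within 2000 bp of a start was seen in 82.9% and 67% (odds ratio 2.40, interval 1.04 to 6.42, Fisher's exact test, adjusted p = 0.0527). It passed without replicate 1 (odds ratio 2.75, adjusted p = 0.0119), with the narrower start window (adjusted p = 0.0124) and with 250 bp around short noncoding genes (adjusted p = 0.0428), and was 1.60 (adjusted p = 0.180) without replicate 2, all by Fisher's exact test. A further member in the host gene was seen in 51.2% and 52.5% (odds ratio 0.951, interval 0.490 to 1.85, Fisher's exact test, adjusted p = 0.877).

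Along the coding sequence, all members together were spread nearly as the eligible bases were. When each coding sequence was cut into 5 equal parts, the parts from first to last held 11.3%, 20.6%, 22.2%, 23.5% and 22.5% of members and 12.1%, 22.2%, 23.2%, 22.5% and 20.1% of eligible bases. In density this was 385 per Mb in the first of these and 459.7 per Mb in the last. The 41 optimal members were distributed as 2, 5, 3, 12 and 19. Members lay in longer exons than a typical coding base, with a median exon length of 356 bp against 291 bp, while that of optimal members was 285 bp.

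The members lay in 4403 of 15602 autosomal genes with eligible coding bases (28.2%). Of these host genes 1314 (29.8%) held several members, 3409 in all, and 70 held 5 or more. Peaks of 1113 members overlapped another member's peak, so neighbouring members can share reads. Host genes had a median length of 3181 bp, and those with several members 5074 bp, against 1869 bp for genes with none. Genes with an optimal member had a median of 3174 bp. The share of genes with a member was 11.0% at up to 500 eligible coding bases and 84.1% (interval 79.6 to 87.9) above 4000. Per Mb of eligible sequence the same 5 bins held 435, 371, 422, 428 and 417 members, with no order by length.

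**Figure D4:**
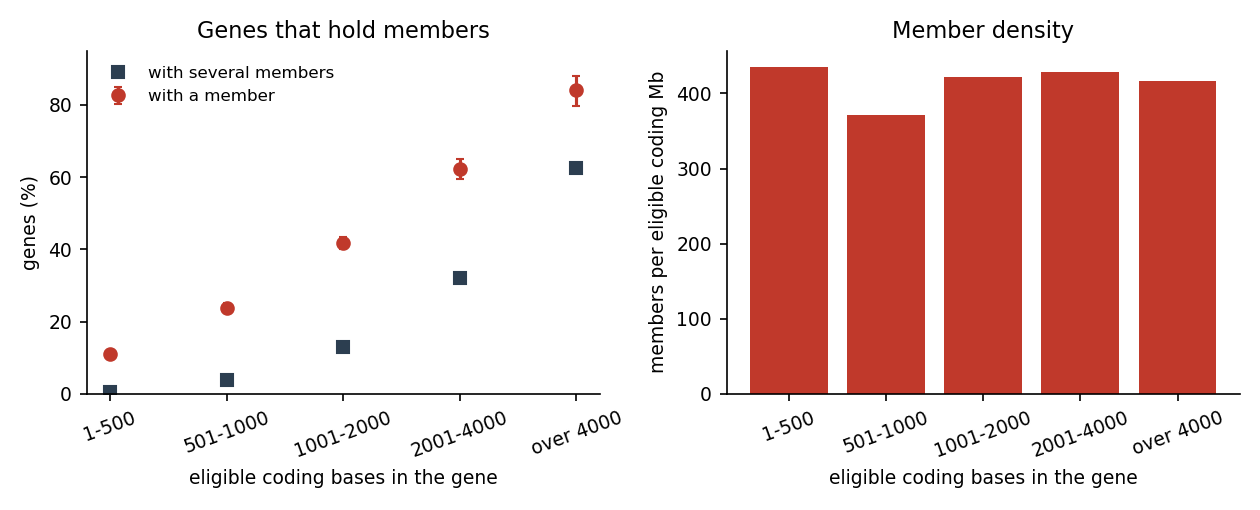
Left, genes with a member (circles, exact binomial 95% intervals) and with several members (squares) as a percentage of genes, by eligible coding bases in the gene. Right, members per Mb of eligible coding sequence in the same bins, which stays between 371 and 435.

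The genes with most members were long. The spectraplakin gene vab-10, which links the cytoskeleton to epidermal attachments, held 17 members with a highest signal of 44.1. The ubiquitin ligase gene eel-1 held 13, the strongest with a signal of 74.9 (rank 921). The myotactin gene let-805 and the perlecan gene unc-52 held 12 each. The sarcomere genes ketn-1, unc-89 and ttn-1, for kettin, obscurin and titin, held 11 each. None of these 7 genes held an optimal member, where 0.631% of all members were optimal. With 11 to 17 members in each gene, that absence does not set them apart from that share. Per kb of eligible coding sequence in 1 representative transcript, let-805 held 0.907 members and ttn-1 0.245. The value for vab-10, 1.17, is too high to set beside them. Some of its 17 members lay in exons of another transcript, whose bases were not counted.

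Gene lists differed in their density of members. Over all genes the density was 411 per Mb of the 15.8 Mb in 1 representative transcript per gene. Members in exons of other transcripts were counted too. Oxidative phosphorylation genes held 21 members at 1037 per Mb, glycolysis and central metabolism genes 69 at 1019, cuticle collagens 1013 per Mb and proteasome subunits 18 at 902. The replicates gave 988 and 839 per Mb for oxidative phosphorylation, 930.1 and 827 for central metabolism, and 859 and 945 for collagens. Translation factors held 803 per Mb in the pooled list, with 688 and 420.4 in the replicates. At the other end, chemoreceptors, the large families of odorant and taste receptors, held 160 members at 173 per Mb (211 and 185 in the replicates), and F-box and MATH proteins held 50 at 184. Nuclear hormone receptors held 360.2 per Mb and aminoacyl-tRNA synthetases 353, and both were also below the value over all genes in each replicate. Sperm proteins held 253 per Mb in the pooled list and 329 in replicate 1, but 429.6 in replicate 2. Homeobox genes held 26 at 472 per Mb, led by vab-7 (signal 67.2, named after its value was seen).

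By genes rather than bases, a member lay in 85 of 142 collagen genes (59.9%), in 33 of 51 central metabolism genes (64.7%) and in 143 of 1317 chemoreceptor genes (10.9%), against 28.2% of all genes. Ribosomal protein genes are short, and 6 of 36 with eligible bases held a member (16.7%), at 787 per Mb of only 8.90 kb. Beyond the optimal members pck-1, col-38, cpr-4, clec-264, nhr-88 and rps-15, none of the 24 lists held an optimal member. Of all 6498 members 41 (0.631%) were optimal. With 2 to 160 members per list, a count of 0 or 1 does not set a list apart from that share. The median signal was 38.9 in central metabolism genes, 37.7 in collagens and 30.2 in chemoreceptors, against 32.5 over all members. Overlap in both replicates was 76.2% for oxidative phosphorylation, 72.5% for central metabolism and 28.0% for F-box and MATH proteins, against 49.6% of all members. Strong members outside the optimal list, named after their values were seen, included nuo-5 of respiratory complex I (84.8) and the proteasome gene pbs-5 (83.4). Others were srlf-15 of the chemoreceptor list (82.6), col-105 (81.1) and the chaperone gene hsp-1 (75.1). In replicates 1 and 2 nuo-5 ranked 143 and 11337, pbs-5 606 and 959, and srlf-15 1418 and 960. The col-105 peak ranked 14088 and 235, and that of hsp-1 973 and 17399. So nuo-5, col-105 and hsp-1 ranked high in only 1 replicate.

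**Figure D5:**
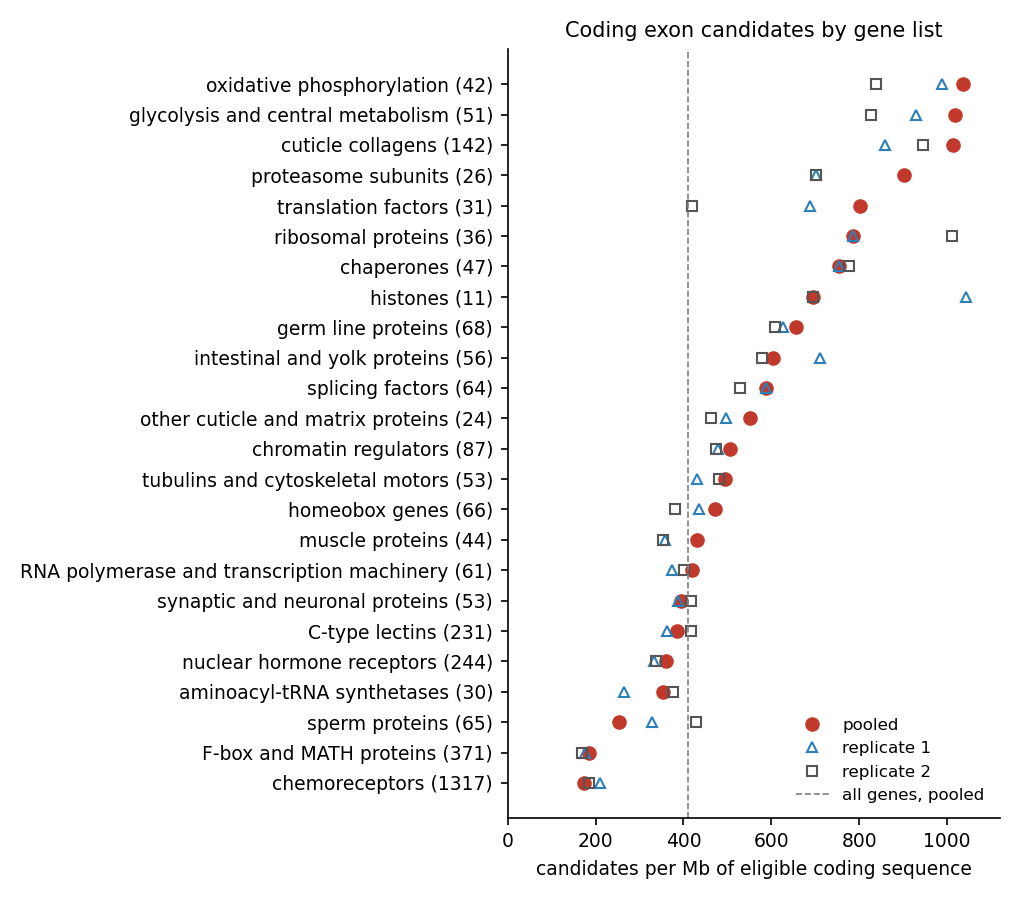
Candidates with a summit in eligible coding sequence per Mb of that sequence (horizontal), for 24 gene lists (vertical, number of genes with eligible bases in brackets), in the pooled list (circles), replicate 1 (triangles) and replicate 2 (squares). The dashed line marks 411 per Mb over all genes, and chemoreceptors, F-box and MATH proteins, nuclear hormone receptors and aminoacyl-tRNA synthetases lie below it in all 3 lists.

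The density of members was higher in each class of genes with higher coding GC content. When genes were ranked by coding GC content and cut into 5 equal classes, the density was 134 members per Mb in the lowest class, then 272, 365 and 496, and 773 in the highest. The lowest and highest classes had 159 and 695 per Mb in replicate 1 and 162 and 709 in replicate 2. Coding GC content was 54.2% in collagens, 48.8% in oxidative phosphorylation genes and 37.7% in chemoreceptors, against 42.7% over all genes. Not every list followed that order, since sperm protein genes had 44.4% GC and a pooled density below that of all genes. Optimal members numbered 2, 9, 5, 4 and 21 from the lowest to the highest class, where 0.631% of all members were optimal. These counts are not shares. The classes had 2.58, 3.30, 3.58, 3.46 and 2.88 Mb of eligible sequence, so the highest class also held the most members and the lowest the fewest. The optimal share by class was not computed. Expression level of the genes is not in these files, and the part of GC content in the list densities was not tested.

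Words typical of homeodomain sites were uncommon at these summits. TAATTA, searched on both strands within 50 bp of the summit, was found in 0 of 41 optimal members (exact upper bound 8.60%), 1.21% of other members and 2.95% of all candidates. TAATTG was found in 1 optimal member (2.44%), 4.65% of the others and 6.10% of all candidates. GTTCGA, a core of the box B element of tRNA genes, was found in 1 optimal member, 5.48% of the others and 4.70% of all candidates. GAGAGA was found in 0 optimal members, 5.54% of the others and 8.20% of all candidates. These are counts of letters in a window and not binding sites. TAATTA and TAATTG are rich in A and T, while median summit GC content was 44.6% in members, 38.6% in intronic and 40.6% in intergenic candidates. No share over all eligible coding sequence stands beside these counts, and the part of GC content in them was not tested.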

How the data were processed

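ChIP-seq peaks of 2 replicates were analysed as deposited. Per the notes deposited with the files, candidates were called per replicate and on both pooled, always against 1 control alignment, and the irreproducible discovery rate then gave the optimal list. Each deposited signal value is the authors' own, on an unstated scale, so lists were compared by rank. The sources used here name no aligner or peak caller (not given). Depth is unknown, and precision is that of counts of peaks. The ce10 lists and signal tracks were not used.

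Gene models were those of Ensembl release 115 (WBcel235, the coordinates of ce11). Coordinates are 1-based. A summit shared by coding exons of several genes (4 members) was given to the gene with the longest coding sequence. Eligible bases are coding bases that meet the rule. Shares were compared by two-sided Fisher's exact tests with Benjamini-Hochberg adjustment over 4 comparisons and 7 features, at a threshold of 0.05 and with exact conditional intervals of the odds ratios, and the scripts were tested on simulated data. The members and 24 gene lists were chosen with earlier results of these data known. Genes named were hosts of the 25 strongest members, the optimal members of each list, the genes with most members and the neighbours of the threshold; others are marked as named after their values were seen. Alternatives were other windows, distances, overlaps, each replicate alone and the 283 strongest optimal peaks. Scripts ran in Python 3.11.15 (scipy 1.17.1, numpy 2.4.6, pandas 2.3.3, matplotlib 3.10.9).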

Additional observations from a re-analysis of the deposited data

How the results depend on the processing

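Results were recomputed in 81 alternatives. Of these 63 gave the same call and direction, or a value close to the reported one, while 14 moved, 1 lost its call and 3 turned. The odds ratio of optimal membership against intronic candidates turned to 1.07 with a start window of 500 bp before to 100 bp after, and leaving out 1 replicate gave 1.04 to 1.15. The odds ratio of overlap in both replicates against intergenic candidates fell to 1.03 with at least 50% overlap. The members' optimal share was 0.862 to 0.909% without 1 replicate and 0.185% for the strongest 283 optimal peaks. Overlap in both replicates was 48.2% with a start window of 2000 bp before to 500 bp after and 36.3% with at least 50% overlap. With that wider window the last 20% of the coding sequence held 25.1% of members and the median host gene was 4021 bp long. Without 1 replicate 26.7 to 28.0% of host genes held several members. Of the 7 features, 2 passed, against 4 with the narrower window, 1 with the wider, 5 with 250 bp around short noncoding genes, 1 with the 283 strongest optimal peaks and 3 to 4 without 1 replicate. The last coding exon passed in all 9 alternatives run. Leaving out candidates in repeated sequence, an alternative chosen after seeing the data, let 3 features pass and ended no call. The causes of these changes were not tested. No paired analysis was possible because there is 1 group. Overlap in both replicates has no value without 1 replicate. With 41 optimal members the shares among them are known only to within about their intervals.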
